A study of Mus musculus with 5 samples.

Results

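The 8 genes described here, Nfs1, Lyrm4, Iscu, Hscb, Glrx5, Isca1, Isca2 and Cisd1, belong to the making and carrying of iron-sulfur clusters. They were taken by name from the 49315 genes listed in each deposited table, and all 8 were found and passed the filter on low counts. RNA had been sequenced, after poly-A enrichment, from hearts of mice of 2 groups, 3 libraries after a diet high in fat and sucrose (HFHS) and 2 libraries after chow. The diets lasted 18 weeks, every mouse of both groups was given 1 intravenous dose of iron dextran, and the hearts were flushed with phosphate-buffered saline and taken 48 hours later. There is no group without iron, so the comparison is of the diets after iron only. The sources used here give no strain, sex or age. They do not state that each library is a separate mouse, and p-values then reflect nothing but the spread among these libraries, which may be technical.

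Iron-sulfur clusters are small groups of iron and sulfur atoms that serve as electron carriers in the respiratory chain and as catalytic centres in enzymes, and the heart, packed with mitochondria, uses many of them. In mitochondria the cysteine desulfurase NFS1, held by its partner LYRM4, passes sulfur to the scaffold ISCU, on which the first cluster is built. The co-chaperone HSCB helps to hand that cluster on to GLRX5, and ISCA1 and ISCA2 act later, in building the larger clusters. CISD1, also called mitoNEET, sits on the outer mitochondrial membrane and carries a cluster itself; it is not part of the core assembly machinery, although it is grouped with these genes here.

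The libraries held 14362766 to 17774735 counts each. Levels are given as CPM, a gene's counts per 1000000 counts of its library, with library sizes adjusted by TMM, a scaling that assumes that most genes do not differ. Changes were tested with edgeR's quasi-likelihood test over all 14221 genes that passed the filter, with Benjamini-Hochberg adjusted p-values and a threshold of 0.05; a log2 fold change is HFHS minus chow. Fold changes followed gene length across the whole table: the median log2 fold change was -0.47 among the genes with the shortest exons and 0.32 among those with the longest (the outer of 10 bins by exon length). The libraries were therefore also compared with offsets that remove each library's smooth trend on exon length and GC content. In bulk tissue, fewer cells of a type and less RNA per cell cannot be told apart.

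Of the 8 genes, 6 were lower in HFHS hearts and none was higher at the threshold, while 18.7% of all genes tested were lower and 19.4% were higher. Lyrm4, Iscu, Hscb, Glrx5, Isca2 and Cisd1 fell, by 1.22-fold to 1.52-fold, and Nfs1 and Isca1 did not pass. The median log2 fold change of the 8 genes was -0.38, against -0.01 over all genes tested. With the exon length and GC offsets none of the 8 genes passed, where 15.0% of all genes were lower and 15.9% higher, and their median was -0.03. Exon length offsets alone also left none of the 8 past the threshold, against 14.7% of all genes lower and 15.4% higher. The 6 genes that fell are the 6 with the shortest exons, from 868 to 2176 bases, and the other two have exons of 3612 and 4288 bases. In CPM the groups did not overlap for any of the 8 genes, 6 being lower and 2 higher in HFHS hearts. Of all genes tested, 29.4% had all HFHS libraries below both chow libraries and 29.2% had them above, 58.5% in all, so this separation is common in the table.

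**Figure D1:**
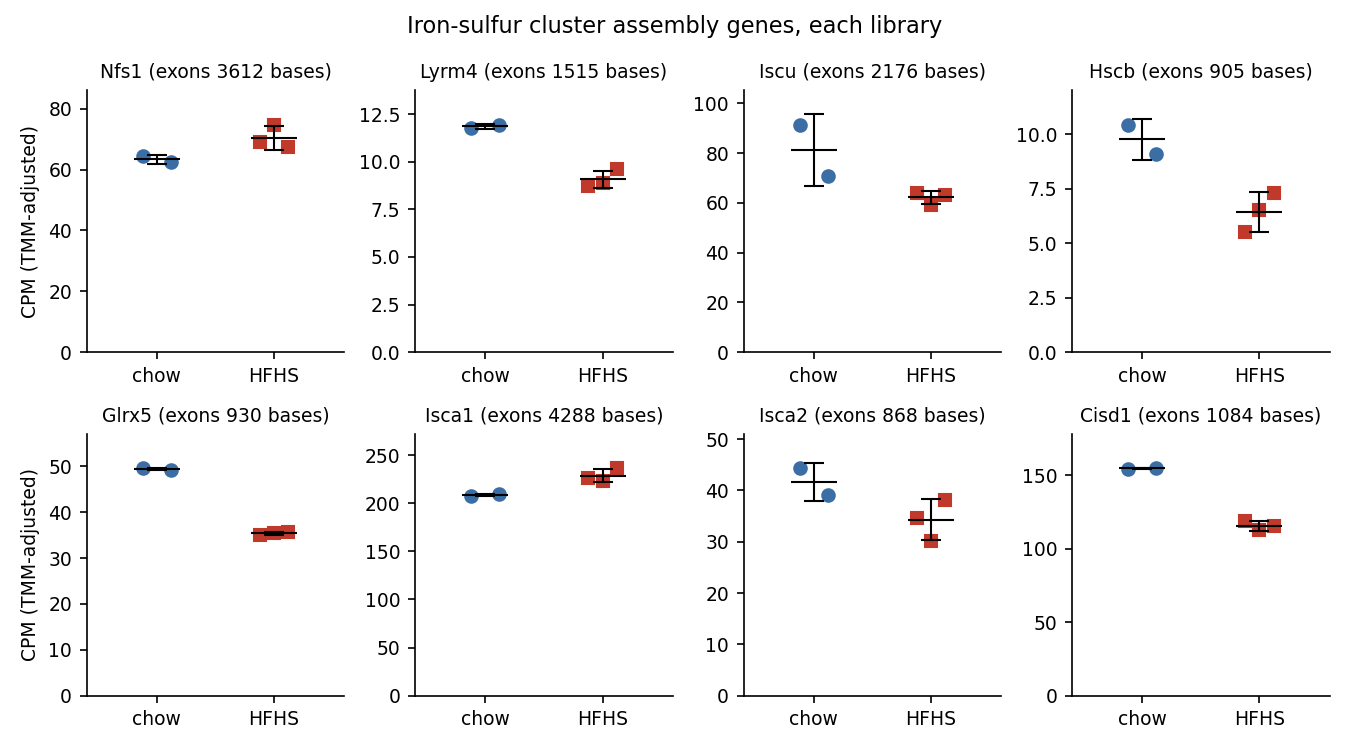
CPM (TMM-adjusted) of each of the 8 genes in the 2 chow libraries (blue circles) and the 3 HFHS libraries (red squares), each panel from 0, with the mean and SD in black. In 6 panels the HFHS points lie below the chow points, and for Nfs1 and Isca1 they lie slightly above.

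Nfs1 (ENSMUSG00000027618, chromosome 2 from 156123639 to 156144186, minus strand, GRCm38) encodes the enzyme that takes sulfur from cysteine. Its level was 68.9, 74.8 and 67.4 CPM in HFHS replicates 1, 2 and 3 and 64.5 and 62.4 CPM in chow replicates 1 and 2. All HFHS values were above both chow values, but the difference was small, 0.15 on the log2 scale (SE 0.0792; edgeR adjusted p 0.157). With offsets on median transcript length and GC content, a step added after the data were seen, it was 0.25 with an edgeR adjusted p of 0.0192 (range over the alternatives 0.0192 to 0.621). The start of Nfs1 lies head to head with Romo1, a small mitochondrial protein gene on the other strand, and 148 of its exon bases (4.10%) are shared with it. Romo1 had 403 to 508 counts in HFHS and 998 to 1018 in chow libraries. On its own strand Nfs1 shares 256 exon bases (7.09%) with Gm28036, which had 0 to 4 counts per library. Because the sources used here do not state the strand setting of the counting, reads from the shared bases cannot be told apart.

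Lyrm4 (ENSMUSG00000046573, chromosome 13 from 35978797 to 36117357, minus strand), whose product stabilises NFS1, was at 8.74, 8.90 and 9.60 CPM in HFHS libraries and 11.7 and 11.9 CPM in chow libraries. The chow libraries were nearly equal and stood above all HFHS libraries. In GENCODE M21 a transcript of Fars2, on the opposite strand, is identical to Lyrm4 over 115 bases. Fars2 had 543 to 832 counts per library. Lyrm4 fell 1.30-fold, -0.38 on the log2 scale (SE 0.129; edgeR adjusted p 0.0307). The call rests on few counts, 124 to 217 per library. It was lost in 4 of the 5 fits that left out 1 library, all but the one without HFHS replicate 3, where the highest edgeR adjusted p was 0.0959 (range over the alternatives 0.0101 to 0.852).

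Iscu (ENSMUSG00000025825, chromosome 5 from 113772748 to 113778288, plus strand) encodes the scaffold on which clusters are built. It was at 64.1, 59.1 and 63.3 CPM in HFHS libraries and 91.4 and 70.9 CPM in chow libraries. The HFHS libraries were close together, while the chow libraries differed by more than the gap between chow replicate 2 and the nearest HFHS library. Iscu fell 1.31-fold, -0.38 on the log2 scale (SE 0.0992; edgeR adjusted p 0.00723). Chow replicate 1 decided the size of the change: without it the log2 fold change was -0.19 with an edgeR adjusted p of 0.148, and without chow replicate 2 it was -0.56 (range of the adjusted p over the alternatives 8.3e-05 to 0.222). Gm16437, a processed pseudogene with 98.4% identity to Iscu over more than 100 bases, had 0 to 2 counts per library.

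Hscb (ENSMUSG00000043510, chromosome 5 from 110829070 to 110839777, minus strand), the co-chaperone that works with the mitochondrial HSP70 to release the cluster from the scaffold, had the largest fitted change of the 8 genes in the fit without length offsets. It was at 5.50, 6.53 and 7.30 CPM in HFHS libraries and 10.4 and 9.11 CPM in chow libraries. All chow values stood above all HFHS values, and both groups were uneven. Hscb fell 1.52-fold, -0.60 on the log2 scale (SE 0.163; edgeR adjusted p 0.00920). It is the gene with the fewest counts of the 8, 88 to 193 per library, and without chow replicate 1 its edgeR adjusted p was 0.0729 (range over the alternatives 0.00207 to 0.515).

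Glrx5 (ENSMUSG00000021102, chromosome 12 from 105032689 to 105040910, plus strand) encodes the mitochondrial glutaredoxin that carries clusters from the scaffold to later steps and is needed for haem synthesis in red blood cell precursors. It was at 35.1, 35.5 and 35.7 CPM in HFHS libraries and 49.6 and 49.2 CPM in chow libraries. Values within each group lay close together, with SDs of 0.325 (n = 3) and 0.302 CPM (n = 2). At 494 to 917 counts per library, counting error alone is larger than these SDs. They are thus no measure of how well the groups are separated. Glrx5 fell 1.39-fold, -0.48 on the log2 scale (SE 0.0803; edgeR adjusted p 0.000326). It passed in all 5 fits that left out 1 library. The 150 bases before its start in RefSeq (GRCm38.p6, chr12:105032468-105032617, plus strand) are shown because Glrx5 was among the most even of the genes that fell; capitals mark the CCAAT box, on either strand.
Glrx5: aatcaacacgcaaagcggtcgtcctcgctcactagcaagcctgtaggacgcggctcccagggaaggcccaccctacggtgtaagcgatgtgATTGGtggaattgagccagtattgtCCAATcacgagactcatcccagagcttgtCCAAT

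Isca1 and Isca2 are the A-type carrier genes, whose products act together late in mitochondrial assembly. Isca1 (ENSMUSG00000044792, chromosome 13 from 59755409 to 59769810, minus strand) was at 226.3, 223.0 and 236.5 CPM in HFHS libraries and 208.0 and 209.7 CPM in chow libraries. All HFHS libraries were higher, but the log2 fold change of 0.13 (SE 0.0689) had an edgeR adjusted p of 0.154 and did not pass under any alternative. Isca2 (ENSMUSG00000021241, chromosome 12 from 84773270 to 84775089, plus strand) was at 34.6, 30.1 and 38.0 CPM in HFHS libraries and 44.3 and 39.1 CPM in chow libraries. Its groups nearly touched, HFHS replicate 3 lying just under chow replicate 2. Isca2 fell 1.22-fold, the smallest change among the 6 genes, -0.28 on the log2 scale (SE 0.105; edgeR adjusted p 0.0459). That call was lost without HFHS replicate 1, without HFHS replicate 2 and without chow replicate 1, where the highest edgeR adjusted p was 0.274 (range over the alternatives 0.00388 to 0.675). The difference between the changes of Isca1 and Isca2 was not tested, and with the exon length and GC offsets their log2 fold changes were 0.12 and 0.13. AK157302, a protein-coding gene with 99.0% identity to Isca1 over 1914 bases, had 2 to 6 counts per library. Etohd2, on the opposite strand, is identical to Isca1 over 257 bases and had 35 to 70 counts. A transcript of Trappc4 matched Isca1 at 95.05% over 101 bases, and Trappc4 had 228 to 426 counts. How reads that map to more than 1 gene were handled is not given. The 150 bases before the deposited start of Isca1 (GRCm38.p6, chr13:59769811-59769960, minus strand) are shown beside those of Glrx5 as the gene with the longest exons, which did not pass. The RefSeq start of Isca1, at 59769789, lies downstream of the deposited one. Capitals mark the CCAAT box and AAGGTCA, the half-site of the oestrogen-related receptors.
Isca1: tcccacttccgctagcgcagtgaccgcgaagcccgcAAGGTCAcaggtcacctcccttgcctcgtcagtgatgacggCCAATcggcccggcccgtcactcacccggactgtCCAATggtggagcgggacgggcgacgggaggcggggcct

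Cisd1 (ENSMUSG00000037710, chromosome 10 from 71330480 to 71344954, minus strand) was at 118.9, 112.5 and 115.3 CPM in HFHS libraries and 154.7 and 155.0 CPM in chow libraries. The chow libraries were nearly equal, and each HFHS library was well below them. Cisd1 fell 1.34-fold, -0.42 on the log2 scale (SE 0.0698; edgeR adjusted p 0.000304), and passed in all 5 fits that left out 1 library. Of its relatives in the NEET family, Cisd3, a NEET protein of the mitochondrial matrix with exons of 833 bases, fell 1.39-fold from 38.2 ± 3.18 CPM (SD, n = 2) to 27.4 ± 1.64 CPM (SD, n = 3) with an edgeR adjusted p of 0.00126. Cisd2, of the endoplasmic reticulum and outer mitochondrial membrane, with exons of 7667 bases, was at 74.2 ± 4.66 CPM after HFHS against 73.8 ± 7.20 CPM after chow, with an edgeR adjusted p of 0.948. The difference between the changes of these genes was not tested. Cisd3 was at -0.07 once the exon length and GC offsets were applied, with an edgeR adjusted p of 0.617 (range over the alternatives 2.96e-05 to 0.673), and Cisd1 and Cisd2 were then at -0.03 and -0.14, so that none of the 3 passed. With the transcript length and GC offsets Cisd3 (-0.29, edgeR adjusted p 0.0265) and Cisd1 (-0.31, edgeR adjusted p 0.00263) were lower. Cisd2 (-0.07) did not pass there. A stretch of 30 bases upstream of the RefSeq start of Cisd1, whose nearest base lies 50 bases upstream of that start and which holds the NRF1 motif in capitals, is shown because Cisd1 alone among the 6 matched promoters had it (GRCm38.p6, chr10:71344899-71344928, minus strand); in the deposited tables these bases lie within the first exon.
Cisd1: tggaccagctGCGCATGCGCgactctaccg

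Promoters of 300 bases, 250 before and 50 after each RefSeq start, matched Nfs1, Lyrm4, Glrx5, Isca1, Isca2 and Cisd1. They were searched on both strands, overlaps allowed, for the CCAAT box (CCAAT), the ETS motif (CCGGAAG), the NRF1 motif (the letters in capitals in the Cisd1 stretch), the half-site of oestrogen-related receptors (AAGGTCA) and the E-box (CACGTG). The CCAAT box was found 4 times in Glrx5 and 2 times each in Isca1 and Isca2, and 37.4% of all 32817 promoters held it. The ETS motif was found 2 times in Nfs1 and 1 time each in Isca1 and Isca2, against 8.86% of all promoters. The NRF1 motif was in Cisd1 (0.966% of all promoters) and the half-site in Isca1 (4.72%). The E-box, in 7.15% of all promoters, was in none of the 6, and Lyrm4 held none of the motifs. Genes that fell and genes that did not pass thus shared motifs, and no motif was in all of the genes that fell. A match describes letters in a window and not a bound site.

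The calls of the 6 genes depended on how gene length was treated. The bin of genes with the shortest exons, which holds Isca2, Hscb, Glrx5 and Cisd1, had a median log2 fold change of -0.47, and 43.6% of its genes were lower at the threshold. The second bin, with Lyrm4, had a median of -0.32 and the third, with Iscu, one of -0.18. The fifth and sixth, with Nfs1 and Isca1, had medians of -0.04 and 0.03. Cisd1 and Glrx5 thus lay close to the median of their bin, Isca2 above it and Hscb and Iscu below it.

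**Figure D2:**
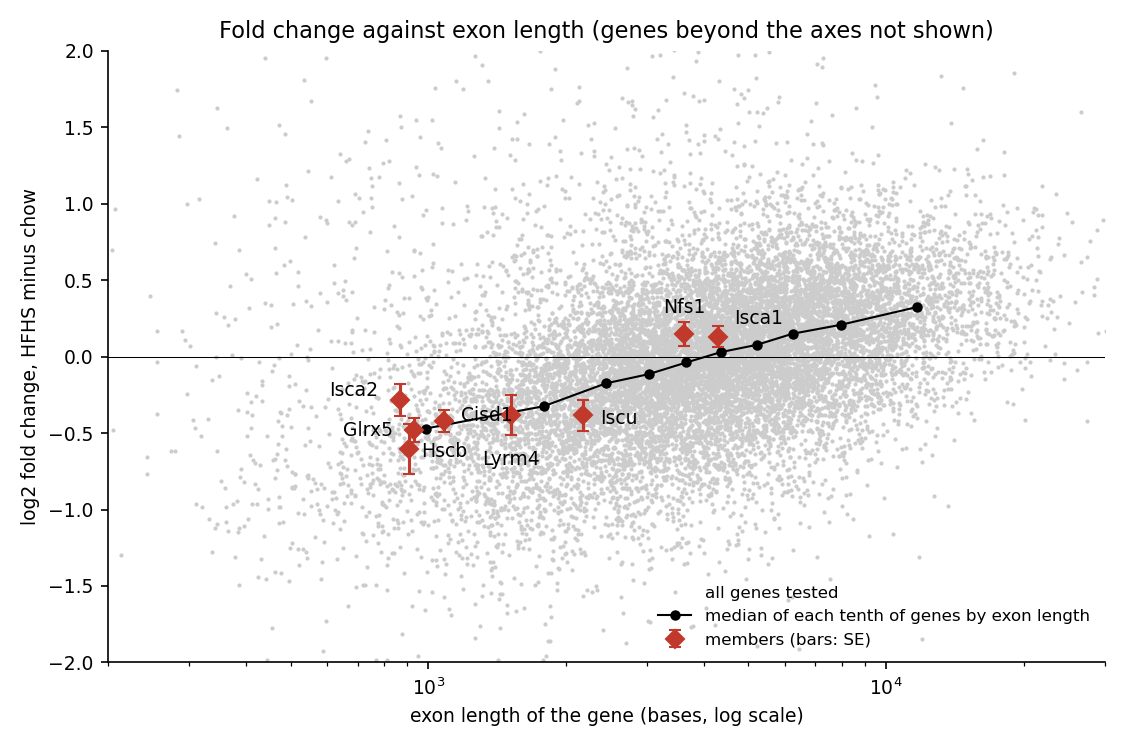
Log2 fold change (HFHS minus chow) against exon length in bases (log axis) for all genes tested (grey), the median of each of 10 bins of genes by exon length (black) and the 8 genes (red, bars are SE). The black line runs from -0.47 to 0.32, and most of the 8 genes lie near it.

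Once the exon length and GC offsets were applied, Cisd1 had a log2 fold change of -0.03 (SE 0.0695) with an edgeR adjusted p of 0.798 (range over the alternatives 1.76e-06 to 0.994). That of Glrx5 was -0.07 (SE 0.0779) with an edgeR adjusted p of 0.517 (range 6.26e-06 to 0.719). Lyrm4 was at -0.04, Hscb at -0.15 and Iscu at -0.18, and Isca2 turned to 0.13. Nfs1 and Isca1 stayed at 0.18 and 0.12. None of these passed. When median transcript length took the place of exon length, Glrx5 (-0.37), Lyrm4 (-0.44) and Cisd1 (-0.31) were again lower and Nfs1 (0.25) was higher at the threshold, where 16.8% of all genes were lower and 20.0% higher. The measures of length differ for single genes: Nfs1 has exons of 3612 bases in all but a median transcript of 1179 bases over 4 transcripts, and Lyrm4 has 1515 bases in the deposited tables but a transcript of 2086 bases in GENCODE M21. The cause of the length trend was not tested.

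**Figure D3:**
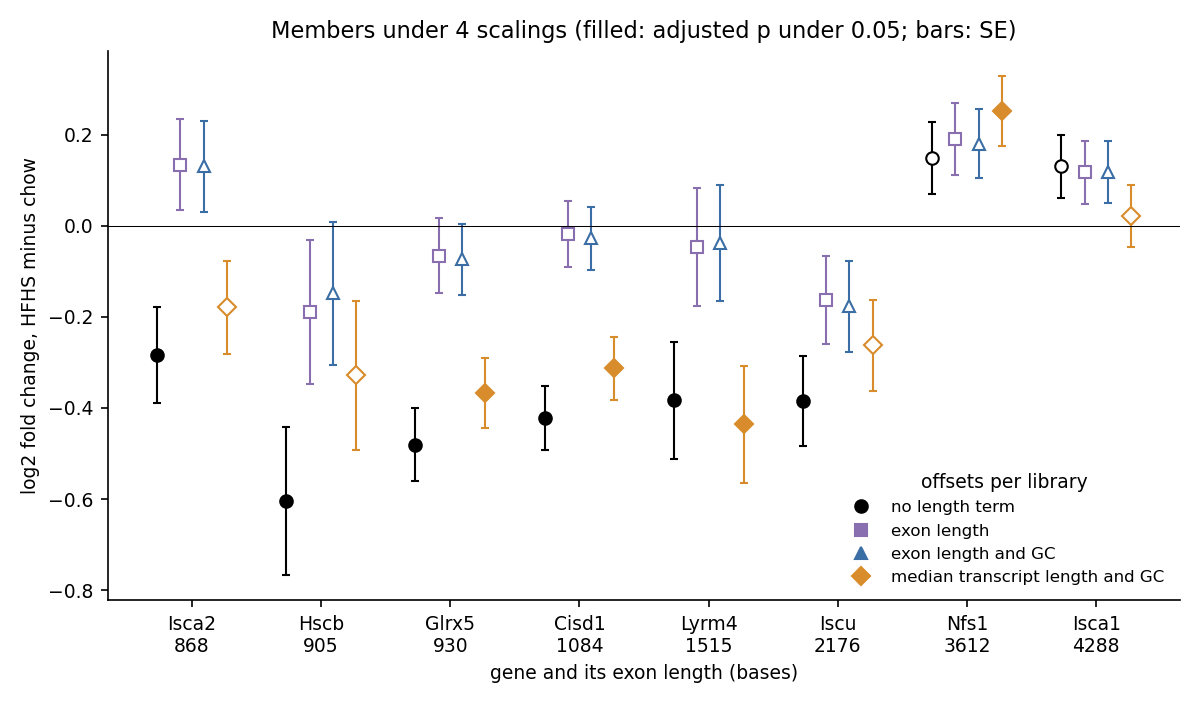
Log2 fold change (HFHS minus chow, bars are SE) of the 8 genes, ordered by exon length, with no length term (black) and with offsets on exon length (purple), exon length and GC (blue) or median transcript length and GC (orange); filled symbols have an edgeR adjusted p under 0.05. With no length term 6 genes are filled, with exon length none, and with transcript length 4.

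Per length, as CPM per kilobase of exon, Cisd1 stood highest and Lyrm4 lowest of the 8 genes in every library. This order and the ratios below hold for exon length only, which can differ from transcript length. Exon length and median transcript length are 2176 and 773 bases for Iscu, 3612 and 1179 for Nfs1, and 1515 and 2086 for Lyrm4. Levels per transcript length were not compared. In chow hearts the levels per kilobase were 142.8 ± 0.203 for Cisd1, 53.2 ± 0.325 for Glrx5, 48.7 ± 0.290 for Isca1, 48.1 ± 4.26 for Isca2, 37.3 ± 6.68 for Iscu, 17.6 ± 0.410 for Nfs1, 10.8 ± 1.05 for Hscb and 7.82 ± 0.0911 for Lyrm4 (SD, n = 2). Isca1 and Isca2 did not differ beyond their spread there, and the other neighbours in that order were separated in both chow libraries. In HFHS hearts Isca1 stood second, at 53.3 ± 1.64 (SD, n = 3), above Isca2 at 39.4 ± 4.60 and Glrx5 at 38.1 ± 0.350, which overlapped. Iscu at 28.6 ± 1.24 and Nfs1 at 19.5 ± 1.08 followed, and Hscb at 7.12 ± 0.999 and Lyrm4 at 5.99 ± 0.299 overlapped at the low end. The ratio of Isca1 to Isca2 per kilobase was 1.32, 1.501 and 1.26 in HFHS libraries and 0.950 and 1.09 in chow libraries. The ratio of Nfs1 to its partner Lyrm4 was 3.31, 3.52 and 2.95 in HFHS libraries and 2.30 and 2.19 in chow libraries. Neither ratio overlapped between the groups. That followed from the single genes: in both ratios the upper gene was higher in all HFHS libraries and the other gene lower. In both the upper gene also has the longer exons.

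Among 11 other genes of mitochondrial assembly, 10 could be tested, of which 5 fell, 2 rose and 3 did not pass, with a median log2 fold change of -0.39. The shares over all genes tested were 18.7% lower and 19.4% higher. Unlike for the 8 genes, most of these calls held with every length offset: 4 lower and 2 higher genes passed in the fit without offsets and in all 3 with them. The share of all genes tested that passed in each of these fits was not computed, so this count has no background beside it. These other assembly genes also have longer exons, with a median of 3571.5 bases against 1299.5 for the 8 genes. Their transcripts are not longer in the same way. Median transcript lengths are 502 bases for Ndufab1, 554 for Bola3, 829 for Nfu1, 836 for Hspa9, 864 for Iba57 and 875 for Fdx1. Among the 8 genes they run from 443 bases for Hscb to 2518 for Isca1. Bola3, which helps to deliver clusters to lipoate synthase and respiratory proteins, went from 115.0 ± 3.65 CPM (SD, n = 2) in chow to 71.8 ± 2.54 CPM (SD, n = 3) in HFHS hearts, with an edgeR adjusted p of 8.49e-06. Its log2 fold change was -0.68, and -0.61 with the exon length and GC offsets. Ndufab1, the acyl carrier protein that binds LYRM4 in the NFS1 complex, fell 1.41-fold, and Fdx1, a ferredoxin that supplies electrons, 1.44-fold. The log2 fold change of Ndufab1 was -0.62 with the exon length and GC offsets and -0.26 with those on transcript length and GC. Nfu1, a carrier for larger clusters, fell 1.33-fold.

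Iba57, the partner of ISCA1 and ISCA2, rose 1.61-fold from 11.5 ± 0.604 CPM (SD, n = 2) to 18.6 ± 2.40 CPM (SD, n = 3), with an edgeR adjusted p of 0.000786. Hspa9, the mitochondrial HSP70 with which HSCB works, rose 1.20-fold with an edgeR adjusted p of 0.0129. That call was lost without HFHS replicate 1, without HFHS replicate 2 and without chow replicate 1, where the highest edgeR adjusted p was 0.113 (range over the alternatives 0.000867 to 0.113). Bola1 was at 5.63 ± 0.588 CPM after HFHS against 7.32 ± 0.405 CPM after chow, the ferredoxin reductase gene Fdxr at 6.13 ± 1.54 and 6.23 ± 0.540 CPM, and Nubpl, which serves complex I assembly, at 10.4 ± 0.455 and 12.0 ± 1.14 CPM. These 3 did not pass. The ferredoxin gene Fdx2, listed as Fdx1l in the annotation, had 1 to 7 counts per library and was not tested.

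Of 6 genes for iron entry into mitochondria and export to the cytosol, 3 rose and 3 did not pass, beside 19.4% higher of all genes tested. Abcb8, an ATP-binding cassette transporter of the inner mitochondrial membrane, rose 1.38-fold from 42.0 ± 1.83 CPM (SD, n = 2) to 58.0 ± 1.89 CPM (SD, n = 3), with an edgeR adjusted p of 0.000442, and stayed past the threshold with each length offset. Abcb10, another such transporter, rose 1.32-fold. Abcb10 did not pass with the transcript length and GC offsets (edgeR adjusted p of 0.109, range 0.000785 to 0.109). The mitoferrin genes, whose products bring iron into mitochondria, did not pass: Slc25a37 was at 27.5 ± 2.28 CPM after HFHS against 24.5 ± 1.30 CPM after chow, and Slc25a28 at 13.3 ± 0.778 and 16.1 ± 2.15 CPM. Gfer, a sulfhydryl oxidase of the intermembrane space, was at 8.93 ± 0.703 and 11.2 ± 0.941 CPM.

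Of 11 genes of cytosolic cluster assembly, 4 fell, none rose and 7 did not pass, beside 18.7% lower and 19.4% higher of all genes tested. Glrx3, a cytosolic glutaredoxin that carries clusters, fell 1.46-fold from 136.2 ± 0.268 CPM (SD, n = 2) to 93.4 ± 4.90 CPM (SD, n = 3) with an edgeR adjusted p of 6.03e-05. Its partner Bola2 fell 1.67-fold at a low level, from 6.09 ± 0.122 to 3.66 ± 0.834 CPM, and its call was lost in 2 of the 5 fits that left out 1 library. The cytosolic targeting factors Ciao2a and Ciao2b fell 1.58-fold and 1.34-fold. With each length offset Ciao2a, Glrx3 and Bola2 stayed past the threshold, while Ciao2b had a log2 fold change of -0.03 with the exon length and GC offsets. With the transcript length and GC offsets Ciao2b was at -0.30 and passed (edgeR adjusted p 0.0303).

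**Figure D4:**
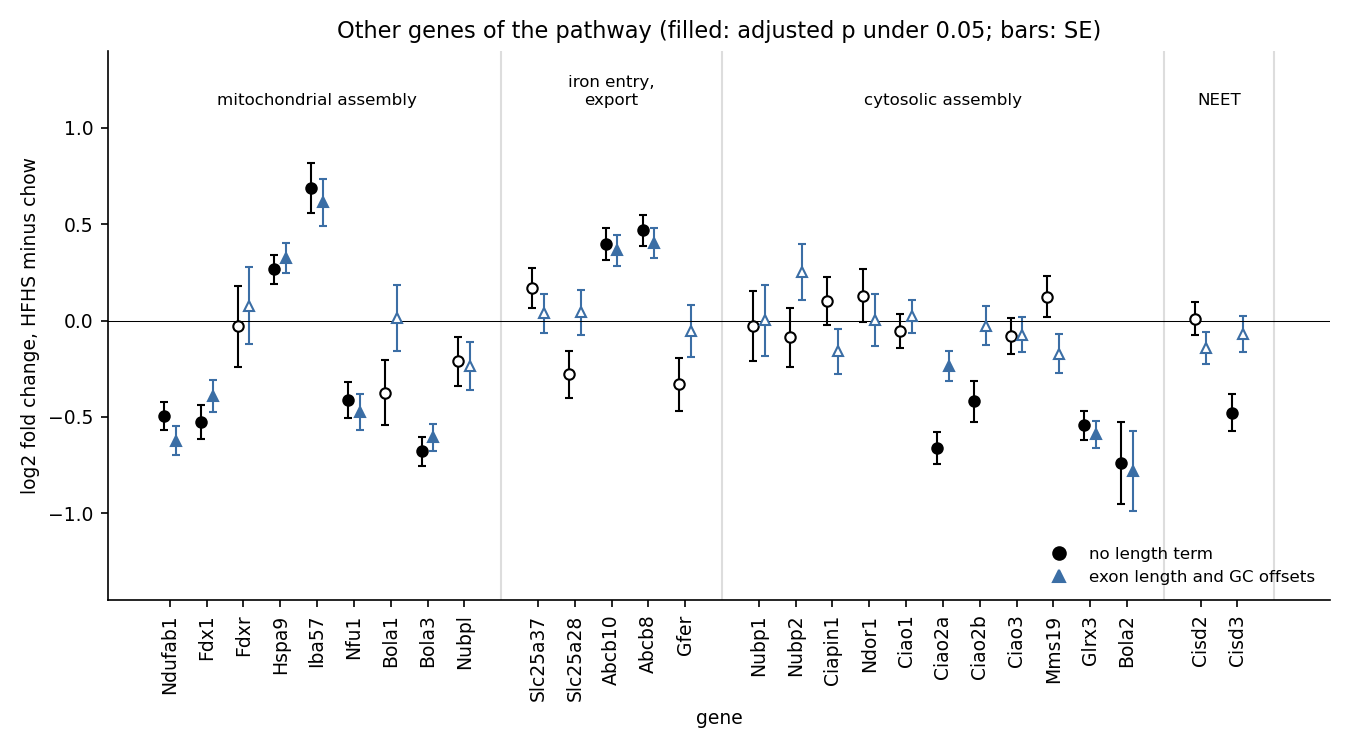
Log2 fold change (HFHS minus chow, bars are SE) of the other pathway genes reported here, by list, with no length term (black circles) and with exon length and GC offsets (blue triangles); filled symbols have an edgeR adjusted p under 0.05. Bola3, Glrx3, Nfu1 and Ndufab1 stay low, and Iba57 and Abcb8 stay high, under both.

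Genes of the proteins that receive clusters moved in both directions. Over all genes tested, 19.4% were higher and 18.7% lower, and with the exon length and GC offsets 15.9% and 15.0%. Of 13 mitochondrial ones, 5 rose, 5 fell and 3 did not pass, and with the exon length and GC offsets 5 rose and 2 fell. Without HFHS replicate 2 the number that rose was 3. With the transcript length and GC offsets 5 rose and 5 fell, beside 20.0% higher and 16.8% lower of all genes. Etfdh, which passes electrons from fatty acid oxidation to ubiquinone, rose 1.49-fold from 576.2 ± 6.54 CPM (SD, n = 2) to 858.8 ± 34.7 CPM (SD, n = 3) with an edgeR adjusted p of 1.86e-05. The complex I subunit genes Ndufv2 and Ndufs8 fell 1.54-fold and 1.57-fold, and their log2 fold changes of -0.62 and -0.65 were -0.33 and -0.25 with the exon length and GC offsets, still past the threshold. Of 18 cytosolic and nuclear ones, 6 rose, 1 fell and 11 did not pass. With the exon length and GC offsets 4 rose, and without HFHS replicate 1 the number that rose was 3 and the number that fell 2. None fell without HFHS replicate 2, without HFHS replicate 3 or without chow replicate 1. Xanthine dehydrogenase (Xdh) rose 1.26-fold and aldehyde oxidase (Aox1) 1.48-fold, and Dpyd, of pyrimidine breakdown, and Elp3, of tRNA modification, rose 1.45-fold and 1.29-fold. Xdh kept its call with each length offset; Aox1, Dpyd and Elp3 each lost it with at least 1 of them.

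Heart muscle markers were abundant in every library, and markers of other cell types differed between the groups. The counts of markers that fell or rose stand beside 18.7% lower and 19.4% higher of all genes tested. The 10 heart muscle markers summed to 77292 to 80263 CPM of the total counts in HFHS and 75127 to 82124 CPM in chow libraries; 3 of them rose and 5 fell, while with each of the 3 length offsets 5 rose and 4 fell. All 7 tested red blood cell markers fell, from a sum of 1487 to 1703 CPM in chow to 250.4 to 524.3 CPM in HFHS libraries. All 10 macrophage markers fell, from 450.0 to 526.2 CPM to 180.3 to 209.8 CPM, but 9 did with the exon length offsets alone, where Adgre1 did not pass. Over the left-out libraries the log2 fold change ranged from -0.63 to -0.39 for Adgre1 and from -0.69 to -0.32 for Cd163, each losing its call at least once. All 8 fibroblast markers fell, from 1253 to 1386 CPM to 809.0 to 874.8 CPM, but 6 did with the exon length offsets and 5 with those on transcript length and GC. Col1a1, Pdgfra and Tcf21 passed in 2, 1 and 2 of the 5 fits that left out 1 library. Of 8 endothelial markers 5 fell and 1 rose (6 and 0 with the exon length offsets), with sums of 1112 to 1125 and 858.0 to 885.6 CPM. Their part in the lower levels of the 6 genes, Glrx5 with its role in red cells included, was not tested. The lung markers Sftpc, Sftpa1 and Scgb1a1 and the skeletal muscle markers Myh4 and Myh2 were at 0 counts in every library, and the fat marker Adipoq had 0 to 1. Of the remaining skeletal muscle markers 3 could be tested and 1 fell, and the 1 fat marker tested, Fabp4, which endothelium also expresses, fell as well.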

How the data were processed

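The authors deposited raw counts per gene, 1 table per library. The build GRCm38 and the tools STAR 2.5.2b, Trimmomatic 0.36 and featureCounts (Subread 1.5.2) are named per the submitters' processing notes. Options, strand setting, annotation release and the handling of multiply mapping reads: not given in the sources used here. Per the file headers, each row gives Ensembl ID, exon coordinates and exon length. Symbols, transcripts and GC content came from GENCODE M21, in which 49056 of 49315 genes were found; promoters came from RefSeq (GRCm38.p6). Copies were searched at 95% identity or more over at least 100 bases.

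The members and gene lists were chosen with earlier results of these data known. Named genes were the 8 members, all genes of the lists of other mitochondrial assembly, iron entry and export, and the NEET family, and the 4 smallest p of each other pathway list; marker genes at 0 were named after their values were seen. A few genes of these lists enter the counts but are not reported here by name. The test was edgeR 4.0.16 (R 4.3.3) with TMM, filterByExpr, glmQLFit and glmQLFTest; standard errors come from the coefficient and the F statistic. Offsets came from smooth trends (mgcv 1.9.3) of each library's log2 CPM. Those on median transcript length were added after the data were seen. Other alternatives were DESeq2 1.42.0, limma 3.58.1 with voom, other size factors and filters, leaving out mitochondrially encoded genes or each library, and the replicate number as a block. The fit and the offsets were tested on simulated data. A count of 0 allows up to 0.169 to 0.209 CPM (3 counts), for counting error only. Library pairs differed by more than sampling noise (chi-square per degree of freedom 2.71 or more).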

Additional observations from a re-analysis of the deposited data

How the results depend on the processing

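The direction of all 8 genes held under other size factors, DESeq2, limma-voom, other filters, the replicate block and each left-out library, and the number of them called changed as given here. The number of the 8 genes that were lower was 0 with exon length offsets, 0 with exon length and GC offsets, 0 with exon length offsets and the replicate block together, and 3 with transcript length and GC offsets, where 1 was higher. It was 2 to 6 over the fits leaving out 1 library, 2 being without chow replicate 1. In the same fits 2207 to 2574 of all genes were higher and 2041 to 2355 lower. Over all alternatives 2053 to 2839 genes were higher and 1941 to 3429 lower. With total counts only, the median of all genes moved from -0.01 to -0.11, and 2053 genes were higher and 3429 lower, against 2756 and 2661.

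With exon length offsets, exon length and GC offsets, and exon length offsets with the replicate block, in that order, log2 fold changes were -0.16, -0.18 and -0.16 for Iscu, -0.05, -0.04 and -0.07 for Lyrm4, -0.19, -0.15 and -0.27 for Hscb, -0.07, -0.07 and -0.06 for Glrx5, and -0.02, -0.03 and -0.00138 for Cisd1, none past the threshold. Isca2 changed sign, with 0.13, 0.13 and 0.07. With transcript length and GC offsets Iscu (-0.26), Hscb (-0.33) and Isca2 (-0.18) did not pass and Nfs1 (0.25) did. With DESeq2, Lyrm4 (-0.38, adjusted p 0.133) and Isca2 (-0.28, adjusted p 0.0890) did not pass. Over the left-out libraries the log2 fold change ranged from -0.56 to -0.19 for Iscu, -0.42 to -0.35 for Lyrm4, -0.70 to -0.50 for Hscb and -0.37 to -0.19 for Isca2, each losing its call at least once.

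Genes with no call changed sign in some settings. Fdxr (-0.03) was 0.10, 0.08 and 0.00385 with the 3 exon length settings in the order above, 0.10 with transcript length, and -0.17 to 0.17 over left-out libraries, with 0.06 without chow replicate 2. Bola1 was 0.03, 0.01 and 0.00185, and Slc25a28 0.06, 0.04 and 0.05 with the exon length settings. Some passed as lower elsewhere: Bola1 (-0.47) and Slc25a28 (-0.37) with total counts, Slc25a28 (-0.41) without chow replicate 1, and Gfer with total counts (-0.43) and upper-quartile factors (-0.37). Cisd2 (0.01) was -0.03 with upper-quartile factors, -0.09 with total counts, -0.18, -0.14 and -0.14 with the exon length settings, -0.07 with transcript length, and -0.09 to 0.11 over left-out libraries. The causes of these shifts were not tested.

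Replicate numbers 1 and 2 are shared by the groups. Deviations of same-numbered libraries from their group means correlated at 0.032 (number 1) and -0.005 (number 2) over 14221 genes. Because the deviations of the 2 chow libraries mirror each other, these values cannot decide whether the numbers mark pairs. With the replicate block 6 of the 8 genes were lower, 2753 of all genes were higher and 2579 lower. Among the 8 genes depth limits Hscb and Lyrm4, with 88 to 217 counts per library, the most.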
